A study of Mus musculus with 16 samples.

Results

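Imprinted genes were read across the juvenile mouse amygdala, and 43 of them were chosen by name from what is known of imprinting. Of these, 42 were among the 17293 genes of the deposited table and were above 0 in at least 1 library, and Phlda2 was not analysed here. A mean above 0.5 CPM (counts rescaled to a common library total) in at least one group was reached by 40 of the 42, out of 14392 genes in the whole table, and only these 40 were tested. Rtl1 and Asb4 stayed below this level. The mice were C57BL/6 at postnatal day 28 (PN28), with 4 CTRL males (libraries LM17 to LM20), 4 PS males (LM25 to LM28), 4 CTRL females (LM21 to LM24) and 4 PS females (LM29 to LM32). PS (prenatal stress) offspring came from dams that met changing psychosocial stressors over most of pregnancy, and CTRL offspring from undisturbed dams. The sequenced mice were not cross-fostered, so PS offspring were also reared by the stressed dams. The PS effect here therefore covers both stress before birth and this rearing. Within each sex and group the animals came from different litters, and no mouse carried a transgene. The amygdala was microdissected, and poly(A) RNA of each animal made 1 directional library.

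An imprinted gene is read mainly from the copy inherited from one parent, because DNA methylation laid down in the egg or the sperm marks a control region nearby and keeps the other copy silent. Imprinted genes lie in clusters, in which a long noncoding RNA is often made from one parental copy and protein-coding neighbours from the other. Many are strongly expressed in brain, where they are known for roles in growth, feeding, maternal care and behaviour, and the loss of such clusters in people causes the Prader-Willi and Angelman syndromes. Of the 43 genes, 27 were listed here as read from the paternal copy and 14 from the maternal copy. For 2 (Gnas and Grb10) the copy was listed as depending on the promoter or the tissue. The listed copy need not hold in every cell type, as for Ube3a, whose paternal copy is silenced in neurons. The copy read in amygdala was not measured. Both parents of an inbred mouse carry the same sequence, so these reads give the summed level of both copies and cannot tell one from the other.

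The deposited values had been corrected by the authors and summed to between 39989993 and 44275406 per library, of which the imprinted genes took 1.16 to 1.44%. That share counts the reads of Snrpn again as Snurf. Without Snurf and Meg3, the most abundant of the genes, it was 0.571 to 0.692%. Basolateral amygdala markers (8 genes) summed to 719 to 1434 CPM over all libraries, and central amygdala and intercalated cell markers (12 genes, 1 at 0 throughout) to 38.4 to 112 CPM. Markers listed for tissue next to the amygdala were also read, and some of their sums differed between groups. Hippocampal sums overlapped between PS and CTRL in both sexes. Hypothalamic sums did not overlap between PS and CTRL males, but only Trh and Pomc of that list reached the tested level. In CTRL males the hypothalamic sum was mostly Trh, so it does not show that hypothalamic tissue was present. Hippocampal markers (13 genes) summed to 1648 to 2445 CPM in CTRL males, 1916 to 4022 in PS males, 2490 to 2907 in CTRL females and 1378 to 2736 in PS females. Hypothalamic markers (13 genes, 6 at 0 throughout) summed to 10.6 to 47.5, 1.25 to 9.03, 7.12 to 35.4 and 16.2 to 35.6 CPM in the same order. Oligodendrocyte markers (12 genes) summed to 283 to 562, 532 to 1110.5, 154 to 417 and 123 to 662 CPM. PS males LM25 and LM28 stood apart (LM25 had the highest hippocampal and lowest central amygdala sum, LM28 the highest oligodendrocyte and lowest hypothalamic sum of all libraries), and results that rest on them are also given without them. That setting leaves only LM26 and LM27 as PS males, so its fits are less precise, and a lost call there does not show where a signal came from. In bulk tissue, fewer cells of a type and less RNA per cell cannot be told apart.

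4 promoter windows from chromosome 7 are shown because the results below turn on the genes they start. Each runs from 250 bases before to 50 bases after an annotated start (RefSeq, GRCm38.p6) and is written 5′ to 3′ along the gene, with capitals marking CG, the base pair step at which imprinting methylation lies. RefSeq gave such windows for 36 of the 43 genes. Methylation was not measured in these samples.
Peg3, whose window at chr7:6730370-6730669 (minus strand) shares 263 bases with that of Usp29 on the other strand: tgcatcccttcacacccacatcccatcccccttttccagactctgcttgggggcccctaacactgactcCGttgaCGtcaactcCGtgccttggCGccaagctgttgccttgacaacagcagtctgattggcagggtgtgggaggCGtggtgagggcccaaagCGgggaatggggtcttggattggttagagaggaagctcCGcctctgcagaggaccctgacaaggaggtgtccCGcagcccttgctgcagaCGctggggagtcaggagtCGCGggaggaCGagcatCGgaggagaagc
Snrpn and Snurf, one window at chr7:60005150-60005449 (minus strand): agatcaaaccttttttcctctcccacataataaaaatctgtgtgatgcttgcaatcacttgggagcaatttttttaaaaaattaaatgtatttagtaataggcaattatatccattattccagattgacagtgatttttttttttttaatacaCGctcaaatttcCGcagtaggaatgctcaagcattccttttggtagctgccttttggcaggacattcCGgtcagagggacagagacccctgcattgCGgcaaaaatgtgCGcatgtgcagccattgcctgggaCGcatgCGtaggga
Snhg14 and the farthest upstream start of Snrpn, one window at chr7:60450128-60450427 (minus strand): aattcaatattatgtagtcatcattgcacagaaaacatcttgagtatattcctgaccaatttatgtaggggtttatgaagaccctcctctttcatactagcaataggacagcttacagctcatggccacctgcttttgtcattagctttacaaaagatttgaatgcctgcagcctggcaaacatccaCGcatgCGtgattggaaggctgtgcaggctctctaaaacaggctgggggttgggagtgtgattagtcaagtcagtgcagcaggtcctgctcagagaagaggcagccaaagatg
Mkrn3, window at chr7:62420104-62420403 (minus strand): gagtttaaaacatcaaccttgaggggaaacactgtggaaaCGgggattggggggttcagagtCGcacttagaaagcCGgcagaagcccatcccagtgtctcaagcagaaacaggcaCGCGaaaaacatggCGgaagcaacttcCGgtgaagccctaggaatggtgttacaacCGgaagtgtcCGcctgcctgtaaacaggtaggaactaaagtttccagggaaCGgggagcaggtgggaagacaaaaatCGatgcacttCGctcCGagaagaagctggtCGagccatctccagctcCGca
The windows held 13 CG in Peg3, 7 in Snrpn and Snurf, 2 at the shared Snhg14 start and 15 in Mkrn3, where the median over 47 windows of imprinted genes was 16, that of all 32807 windows was 7 and that of the 13975 windows of genes with a mean above 0.5 CPM was 20. The letters TGCCGC, the core that ZFP57 binds when methylated to keep imprints, were searched on both strands. They stood in 12 of the 47 imprinted windows (25.5%), in 11.6% of all windows and in 18.998% of the windows of genes with a mean above 0.5 CPM. The Snrpn and Snurf window held them once, and those of Peg3, the shared Snhg14 start and Mkrn3 did not. A match is a description of letters, not of binding.

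Some imprinted genes were among the most abundant transcripts of the amygdala and others were close to the floor. Levels between genes are given as mean CPM per kb of annotated exon over 16 libraries. Snrpn, which encodes the brain form of a spliceosome core protein, stood at 382 CPM per kb and ranked 33rd of 16859 genes. Meg3, a long noncoding RNA read from the maternal copy, followed at 333 (rank 37), and Nnat, which encodes the small membrane protein neuronatin, at 263 (rank 65). Nap1l5 (145, rank 181), Gnas, the stimulatory G protein alpha subunit (116, rank 256), Impact, a regulator of translation (66.4, rank 526), Rasgrf1, an exchange factor for Ras (51.4, rank 769), and Peg13, a noncoding RNA within Trappc9 (44.5, rank 922), were also among the top 1000 genes. Snurf ranked first, but only because its annotation is 216 exon bases long. All of them lie inside Snrpn on the same strand, and the CPM of Snurf lay 0.336 to 0.461% below that of Snrpn in every library, so both genes hold the same reads. At the other end, Rtl1, a retrotransposon-derived gene of placenta and muscle, reached 0.0313 CPM per kb and Asb4 0.0162, and Airn, the noncoding RNA that silences Igf2r, 0.286. As a description of the spread between animals of one group, over the 34 imprinted genes with a mean above 5 CPM the median coefficient of variation within groups was 8.74%, and over all 11023 such genes it was 6.503%.

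**Figure D1:**
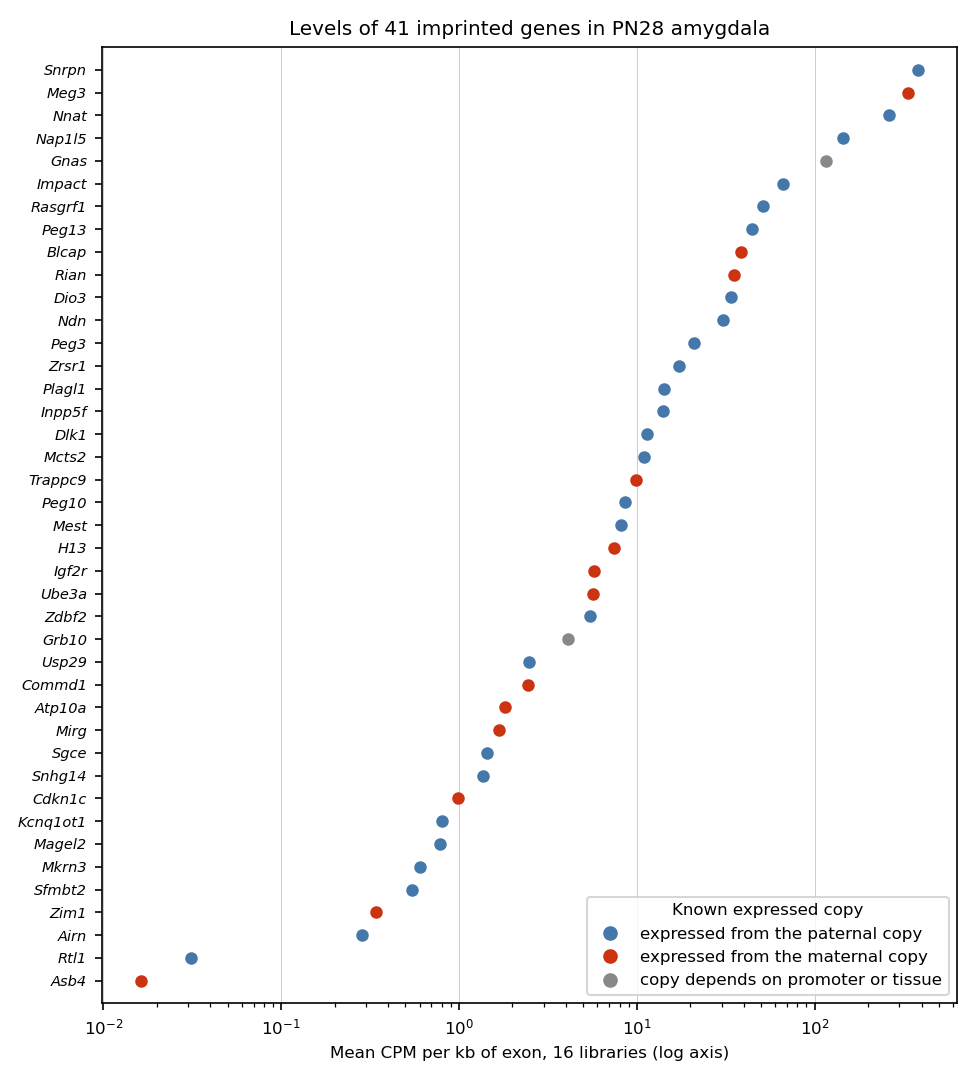
Mean CPM per kb of exon over 16 libraries (log axis) for 41 imprinted genes, coloured by the parental copy that is listed as expressed, with Snurf left out because its reads are those of Snrpn. Snrpn, Meg3 and Nnat lead at 382, 333 and 263 CPM per kb, and Rtl1 and Asb4 lie lowest at 0.0313 and 0.0162.

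The first comparison asks which imprinted genes differed between PS and CTRL males. None of the 40 tested genes of the 43 passed in males, where 3.44% of all genes tested did (492 genes). That background rests on single libraries and on settings of the fit. It was 0.342% without LM18, 0.357% without LM20, 0.385% without LM25 and 0.524% without LM19. It rose to 9.99% without LM32 and was 0% without LM25 and LM28 together. With variances not made to follow expression it was 0.755%, and with no filter on low values 0.893%. It was 11.8% with the directions removed by the authors' correction not counted, and 13.3% with only the compared groups. An unadjusted p under 0.05 was reached by 10 of 40 imprinted genes (25%) and by 25.7% of all genes, and the groups did not overlap for 2 of 40 (5%) and for 23.9% of all genes. The fitted value was lower in PS males for 32 of 40, with a median log2 fold change of -0.12 where that of all genes was 0.01 and 48.2% of all genes were lower. With CPM as deposited, without rescaling between libraries, 24 of 40 and 33.9% of all genes were lower. Without LM25 and LM28 it was 25 of 40 and 48.3%, with a median of -0.03 over the 40.

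Dlk1, which encodes a Delta-like membrane protein that restrains differentiation, had the smallest p in males. It was at 44.1, 123, 104 and 80.3 CPM in CTRL males LM17 to LM20, at 29.6, 63.8, 44.8 and 19.1 CPM in PS males LM25 to LM28, at 68.1, 67.3, 55.3 and 82.2 CPM in CTRL females LM21 to LM24, and at 71.0, 86.1, 45.8 and 54.4 CPM in PS females LM29 to LM32. The lowest CTRL male, LM17, lay below PS males LM26 and LM27, so the groups overlapped. The log2 fold change in males was -1.25 ± 0.35 (SE, adjusted p = 0.0629 by limma, 95% interval -2.00 to -0.50), and it passed in 9 of 24 alternatives, such as -1.54 without LM17 (adjusted p = 0.0225). Without LM25 and LM28 it was -0.68 (adjusted p = 0.272). The summed CPM of hypothalamic markers did not overlap between PS and CTRL males and was lower in PS males, as Dlk1 was. Of the 13, only 2 reached the tested level, Trh and Pomc. Trh encodes thyrotropin-releasing hormone (mean 3.597 CPM in PS males and 30.4 in CTRL males). Pomc was at 0.656 and 1.13 CPM, with a log2 fold change of -0.49 ± 0.93 (SE). In CTRL males the sum was thus mostly Trh. Within each male group the library with the lowest hypothalamic sum, LM17 and LM28, also had the lowest Dlk1. The same held in the female groups (LM23 and LM31). The highest libraries matched in males (LM18 and LM26) but not in females (hypothalamic sum LM22 and LM29, Dlk1 LM24 and LM30). Central amygdala and intercalated markers had a median log2 fold change of -0.82 over 8 tested. Oligodendrocyte genes were higher in PS males for 12 of 12 (median 0.76, 0 past the test). Hippocampal genes were higher for 9 of 13 (median 0.77), while the 1 past the test, Cnih3, was lower. Microglia genes were lower for 12 of 12 (median -0.22, 2 past the test) and basolateral amygdala genes for 6 of 8 (median -0.28, 1 past the test). The part of these lists in the Dlk1 values was not tested.

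Usp29 (ubiquitin-specific protease family) was at 40.0, 60.2, 57.5 and 58.9 CPM in CTRL males LM17 to LM20 and at 30.02, 45.7, 47.3 and 30.4 CPM in PS males LM25 to LM28. In females it was at 41.5, 39.2, 55.4 and 44.1 CPM in CTRL (LM21 to LM24) and at 40.1, 36.5, 40.2 and 52.7 CPM in PS (LM29 to LM32). As for Dlk1, LM17 was the one CTRL male inside the PS range, and LM25 and LM28 were the lowest PS males. Its log2 fold change in males was -0.57 ± 0.19 (SE, adjusted p = 0.0895), -0.27 without LM25 and LM28 (adjusted p = 0.439) and -0.70 without LM17 (adjusted p = 0.0348).

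Trappc9, a subunit of the TRAPP vesicle tethering complexes, differed by little but with small spread. CTRL males LM17 to LM20 were at 77.4, 84.3, 80.8 and 80.0 CPM and PS males LM25 to LM28 at 74.7, 75.2, 75.3 and 75.3 CPM. CTRL females LM21 to LM24 were at 82.9, 76.0, 79.5 and 78.5 CPM and PS females LM29 to LM32 at 80.3, 79.4, 79.6 and 71.8 CPM. The male groups did not overlap, and the log2 fold change in males was -0.16 ± 0.05 (SE, adjusted p = 0.0749), and -0.17 without LM25 and LM28 (adjusted p = 0.146). In the other direction without overlap was Peg13, the noncoding RNA that lies within Trappc9 and is read from the other parental copy (0.11 ± 0.06 (SE), adjusted p = 0.246).

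The other genes with an unadjusted p under 0.05 in males were lower in PS. These were Sfmbt2, a Polycomb protein (-0.44 ± 0.15 (SE), adjusted p = 0.0942), Blcap (-0.22), Mest (-0.36), Magel2 (-0.70), Grb10, an adaptor of the insulin receptor (-0.36), Zim1 (-0.68) and Igf2r, the receptor that clears IGF2 (-0.12), all as log2 fold changes with adjusted p between 0.0942 and 0.194. Without LM25 and LM28 the values were nearer 0, at -0.29 for Sfmbt2, -0.10 for Blcap, -0.14 for Mest, -0.24 for Magel2, -0.13 for Grb10, -0.17 for Zim1 and -0.11 for Igf2r, with adjusted p between 0.356 and 0.787.

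**Figure D2:**
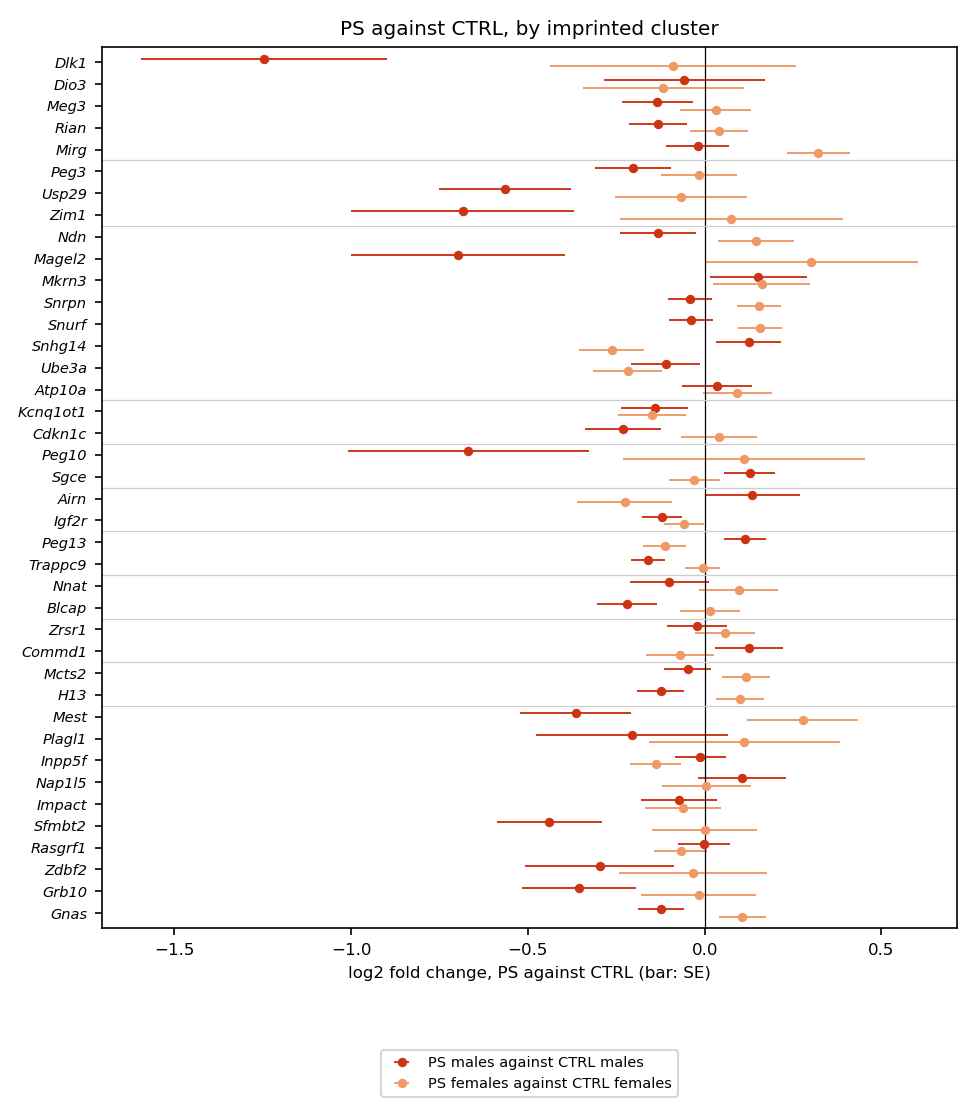
Log2 fold change of PS against CTRL with its SE for 40 imprinted genes in males (dark red) and females (orange), grouped by cluster between the grey lines. Dlk1 in males lies farthest from 0 at -1.25, no gene passed an adjusted p under 0.05 in either sex, and the female values run from -0.26 to 0.32.

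In females, none of the 40 tested genes passed between PS and CTRL, and of all genes 0% did, with 12.7% of all genes and 5 of 40 imprinted genes (12.5%) at an unadjusted p under 0.05. Snrpn and Snurf, which hold the same reads, are both among these 5. The groups did not overlap for 1 of 40 imprinted genes (2.5%) and for 7.45% of all genes. The median log2 fold change was 0.01, with 22 genes higher and 18 lower in PS.

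Mirg, a noncoding RNA of the Dlk1-Dio3 cluster whose introns and exons carry microRNAs, was the gene without overlap. It was at 11.99, 9.69, 12.4 and 10.4 CPM in CTRL females LM21 to LM24 and at 13.2, 14.3, 12.8 and 14.7 CPM in PS females LM29 to LM32. CTRL males LM17 to LM20 were at 11.5, 13.4, 12.3 and 10.9 CPM and PS males LM25 to LM28 at 12.3, 12.7, 11.9 and 12.5 CPM. All 4 PS females lay above all 4 CTRL females, and the log2 fold change was 0.32 ± 0.09 (SE, adjusted p = 0.260, 95% interval 0.13 to 0.51). It did not pass in any of 24 alternatives. RefSeq places 26 mature microRNAs from 14 hairpins inside Mirg. Those of Mir410 and Mir3072 are shown, with the seed (bases 2 to 8) in capitals, because their hairpins share bases with annotated Mirg exons (81 and 58 bases) and are thus part of what a Mirg read can cover. The microRNAs themselves were not measured.
mmu-miR-410-5p: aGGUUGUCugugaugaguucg
mmu-miR-410-3p: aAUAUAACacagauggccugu
mmu-miR-3072-5p: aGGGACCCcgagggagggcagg
mmu-miR-3072-3p: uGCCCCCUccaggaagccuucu
The 4 seeds differ from each other.

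Snrpn and Snurf, which hold the same reads, were the next in females. Snurf, a small protein encoded upstream of SmN on the same messenger RNA, was at 833, 744, 761 and 740 CPM in CTRL females LM21 to LM24 and at 827, 863, 797 and 890 CPM in PS females LM29 to LM32. In males it was at 832, 848, 872 and 777 CPM in CTRL (LM17 to LM20) and at 861, 877, 819 and 817 CPM in PS (LM25 to LM28). CTRL female LM21 lay within the PS range, and the log2 fold change in females was 0.16 ± 0.06 (SE, adjusted p = 0.334). Snhg14, which lies beside Snrpn, and Ube3a had lower values in PS females (-0.26 ± 0.09 and -0.22 ± 0.10 (SE), adjusted p = 0.296 and 0.373).

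The difference between the sexes in the PS effect was tested as the male effect minus the female effect. It passed for 0 of 40 imprinted genes and for 4.11% of all genes tested, and an unadjusted p under 0.05 was reached by 11 of 40 (27.5%) and by 24.6% of all genes. The value was negative for 29 of 40 (24 with CPM as deposited). Snhg14 came closest (0.39 ± 0.13 (SE), adjusted p = 0.0932). It passed without LM25 and LM28 (0.50, adjusted p = 0.0365). Mest, which encodes an alpha/beta hydrolase and is read from the paternal copy, was at 27.9, 40.3, 41.01 and 32.7 CPM in CTRL males LM17 to LM20 and at 21.5, 33.3, 33.6 and 26.5 CPM in PS males LM25 to LM28. In females it was at 25.7, 27.4, 32.9 and 30.6 CPM in CTRL (LM21 to LM24) and at 34.0, 32.2, 40.5 and 32.9 CPM in PS (LM29 to LM32). The mean of the PS group was the lower in males and the higher in females, and the difference of the effects was -0.64 ± 0.22 (SE, adjusted p = 0.101). Mest shares 912 exon bases with Copg2 on the other strand, and no strand setting of the counting is given in the sources used here. Mirg was next (-0.34 ± 0.13 (SE), adjusted p = 0.120).

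Females were next compared with males among CTRL offspring. None of the 40 tested genes passed, where 0.0702% of all genes did. The groups did not overlap for 2 of 40 imprinted genes (5%) and for 4.23% of all genes, and 3 of 40 (7.5%) against 5.54% of all genes had an unadjusted p under 0.05. Females had the lower value for 34 of 40, also with CPM as deposited, with a median log2 fold change of -0.10. Of all genes 50.7% were lower in females (46.02% with CPM as deposited). Marker lists moved between these groups too: 11 of 12 oligodendrocyte genes (median -0.43), 7 of 8 central amygdala and intercalated genes (-0.41) and 12 of 12 microglia genes (-0.13) were at lower values in females, and 9 of 13 hippocampal genes (0.54) at higher ones, with 0 of them past the test. Their part in the values of the imprinted genes was not tested. Mkrn3, a RING finger protein whose loss in people causes early puberty, was at 1.64, 1.83, 2.07 and 1.37 CPM in CTRL males LM17 to LM20 and at 0.886, 1.01, 1.27 and 1.30 CPM in CTRL females LM21 to LM24. All 4 females lay below all 4 males, but the log2 fold change of -0.47 ± 0.14 (SE) had an adjusted p of 0.817 over all genes. Peg13 was at 202, 190, 201 and 198 CPM in CTRL males LM17 to LM20, at 238, 209, 210 and 221 CPM in CTRL females LM21 to LM24, at 244, 221, 219 and 209 CPM in PS males LM25 to LM28 and at 200, 206, 181 and 212 CPM in PS females LM29 to LM32. Its CTRL females lay above its CTRL males without overlap (0.14 ± 0.06 (SE), adjusted p = 0.868). Sfmbt2 was at 5.04, 6.28, 6.55 and 6.16 CPM in CTRL males LM17 to LM20, at 4.43, 4.40, 6.15 and 4.13 CPM in CTRL females LM21 to LM24, at 3.83, 5.47, 4.65 and 4.05 CPM in PS males LM25 to LM28 and at 4.13, 4.29, 4.76 and 5.56 CPM in PS females LM29 to LM32. Here the CTRL groups overlapped through female LM23 (-0.32 ± 0.15 (SE), adjusted p = 0.868).

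Among PS offspring, 2 of the 40 tested genes passed between females and males, both lower in females and both in the Prader-Willi/Angelman cluster of chromosome 7. They were Snhg14 and Mkrn3, 5% of the 40 tested, where 13.1% of all genes passed, so the share of imprinted genes was below that of the table. In deposited CPM the groups did not overlap for 4 of 40 (10%, these 2 with Ube3a and Mirg) and for 23.7% of all genes. On that scale 64.7% of all genes were lower in PS females, against 50.4% after rescaling. An unadjusted p under 0.05 was reached by 9 of 40 (22.5%) and by 32.3% of all genes. The study's rule for DEGs adds a fold change over 1.5 to the adjusted p. With the fold changes of this fit, 0 of these 40 genes met it in any of the 4 comparisons of groups. The difference between the sexes also gave 0. The fit understates fold changes of low genes. For Mkrn3, with group means of 2.04 CPM in PS males and 1.30 in PS females, the rule is therefore not settled.

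Snhg14 (chr7:59307924-59975759 in GENCODE, minus strand) is a long noncoding transcript read from the paternal copy. The RefSeq start whose window is shown above lies farther upstream, outside these GENCODE coordinates, so the 2 annotations differ. It is known as the host of the Prader-Willi snoRNAs, and in neurons its far end runs antisense through Ube3a and keeps the paternal Ube3a copy silent. It was at 34.3, 35.0, 39.6 and 34.2 CPM in CTRL males LM17 to LM20, at 41.1, 44.2, 44.7 and 33.6 CPM in PS males LM25 to LM28, at 31.5, 36.3, 33.3 and 42.4 CPM in CTRL females LM21 to LM24, and at 32.1, 28.9, 28.7 and 27.2 CPM in PS females LM29 to LM32. The 4 PS females lay below the 4 PS males, while CTRL females and males overlapped. The group means were 29.2 ± 2.03 CPM (SD, n = 4) in PS females and 40.9 ± 5.09 in PS males, a log2 fold change of -0.40 ± 0.09 (SE, adjusted p = 0.0184 by limma). It passed in all 24 alternatives, with adjusted p between 0.0055 and 0.0373, and stood at -0.52 without LM25 and LM28 (adjusted p = 0.0122). Between CTRL females and CTRL males its value was -0.01 ± 0.09 (SE).

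Ube3a (chr7:59228750-59311536, plus strand), the maternally expressed ubiquitin ligase whose loss causes Angelman syndrome, had lower PS female values too. It was at 114, 132, 134 and 112 CPM in PS males LM25 to LM28 and at 111, 98.6, 110 and 84.8 CPM in PS females LM29 to LM32, and at 116 to 137 CPM in CTRL males and 105 to 132 CPM in CTRL females. The PS groups did not overlap in CPM as deposited, and the log2 fold change of -0.21 ± 0.10 (SE) had an adjusted p of 0.144. On the rescaled log2 values of that fit the groups overlapped. There PS female LM31 deviated by 0.18 from her group mean and PS male LM25 by -0.12 from his. Annotated exons of Ube3a and Snhg14 share 1803 bases on opposite strands, and with no strand setting given for the counting, reads from these bases cannot be told apart.

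Mkrn3 (chr7:62417593-62420139, minus strand) was at 2.11, 2.05, 1.95 and 2.05 CPM in PS males LM25 to LM28 and at 1.62, 1.40, 1.29 and 0.881 CPM in PS females LM29 to LM32. Again all females lay below all males, by a log2 fold change of -0.46 ± 0.14 (SE, adjusted p = 0.0421), close to the -0.47 of the CTRL comparison, and the difference between the PS effects was -0.01 ± 0.19 (SE). The level is low, and the call was lost in 6 of 24 alternatives (without LM25, LM26, LM28, LM31 or LM32, or without LM25 and LM28 together), with adjusted p up to 0.0994. Inpp5f, a phosphoinositide phosphatase, had the next smallest p. It was at 124, 133, 127 and 117 CPM in PS males LM25 to LM28, at 118, 110, 93.9 and 96.4 CPM in PS females LM29 to LM32, at 114, 129, 135 and 108 CPM in CTRL males LM17 to LM20 and at 113, 116, 115 and 123 CPM in CTRL females LM21 to LM24. The PS groups overlapped through LM29 and LM28, and the log2 fold change was -0.19 ± 0.07 (SE, adjusted p = 0.0889). Of the marker lists, oligodendrocyte genes had lower values in PS females than in PS males for 12 of 12 (median log2 fold change -1.10, 1 past the test). Hippocampal genes were lower for 10 of 13 (median -0.65). The 1 hippocampal gene past the test, Cnih3, went the other way and was higher in PS females (0.86, adjusted p = 0.0125). Basolateral amygdala genes were higher for 6 of 8 (median 0.26, Lmo3 past the test) and neuron genes for 8 of 10 (median 0.13, 1 past the test). Astrocyte genes were lower for 9 of 10 (median -0.18, 2 of them past the test). Higher values in PS females were found for microglia genes (12 of 12, median 0.15, 2 past the test), central amygdala and intercalated genes (8 of 8, median 0.47) and both tested hypothalamic genes (median 2.08), of which Trh passed (2.59, adjusted p = 0.0314). Without LM25 and LM28 Snhg14 kept its call and Mkrn3 lost it (-0.43, adjusted p = 0.0994), and the part of the marker lists in these calls was otherwise not tested.

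**Figure D3:**
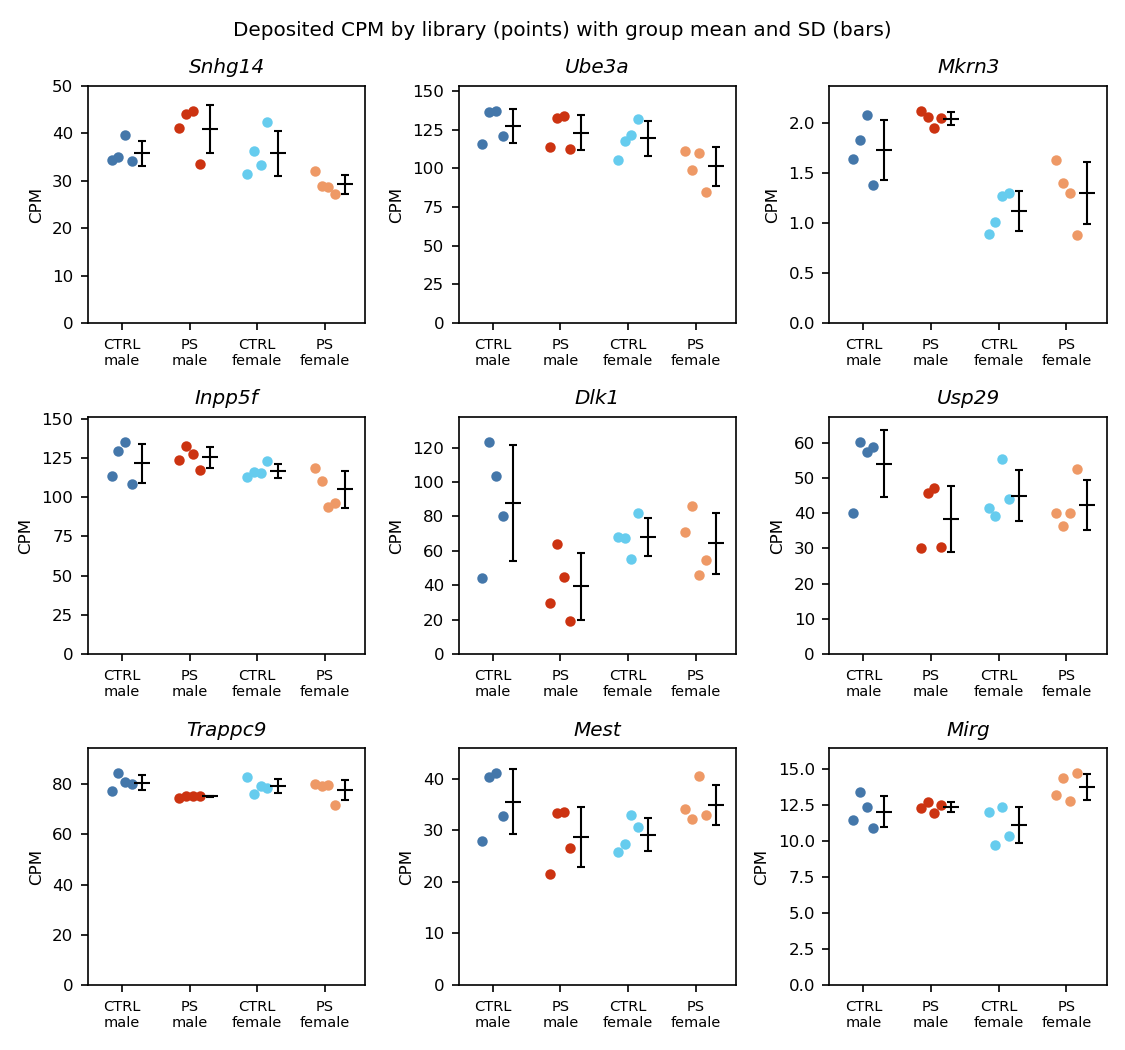
Deposited CPM (linear axes from 0) of 9 imprinted genes in each of the 16 libraries (points), with the group mean and SD beside them (bars). PS females lie below PS males without overlap for Snhg14, Ube3a and Mkrn3, and CTRL male LM17 lies within the PS male range for Dlk1 and Usp29.

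**Figure D4:**
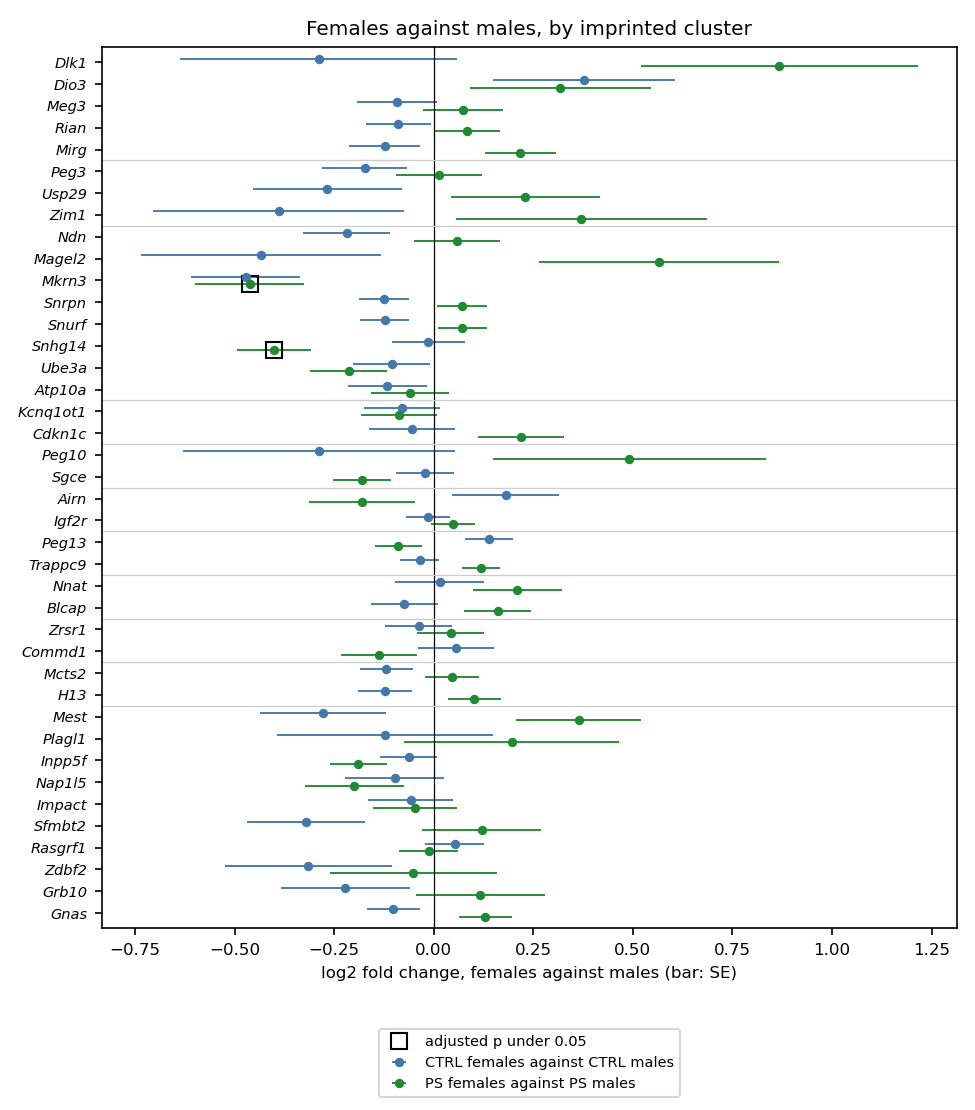
Log2 fold change of females against males with its SE for 40 imprinted genes in CTRL (blue) and PS (green) offspring, grouped by cluster between the grey lines, with squares around the 2 values that passed an adjusted p under 0.05. Mkrn3 lies at -0.47 and -0.46, and Snhg14 at -0.01 in CTRL and -0.40 in PS.

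Within the Dlk1-Dio3 cluster of chromosome 12, Meg3 (group means 6271, 5972, 5919 and 5965 CPM across CTRL and then PS males, and CTRL and then PS females) and the snoRNA host Rian (666, 635, 632 and 639 CPM) had 95% intervals of the PS effect within -0.35 and 0.25 in both sexes. Dio3, the enzyme that inactivates thyroid hormone, was at 60.4, 60.4, 80.7 and 72.4 CPM with a spread between animals of 22.2% (median coefficient of variation). Rtl1 lay at 0.248, 0.074, 0.194 and 0.278 CPM and was not tested at the set level, and it entered the calls between PS females and PS males only without the filter on low values.

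In the Peg3 cluster, Peg3, a zinc finger protein known for maternal care and growth, was at 305, 276, 272 and 264 CPM (same order of groups), and Zim1, another zinc finger gene, at 3.59, 2.21, 2.58 and 2.72 CPM. In the Prader-Willi/Angelman cluster, the MAGE family genes Ndn (121, 116, 104 and 113 CPM) and Magel2 (4.54, 2.75, 3.16 and 3.94 CPM) and the lipid-transporting ATPase Atp10a (10.2, 10.9, 9.42 and 9.90 CPM) passed in none of the comparisons. The Kcnq1ot1 cluster gave Kcnq1ot1, the antisense RNA that silences its neighbours, at 79.6, 75.1, 75.8 and 67.1 CPM and the cell cycle inhibitor Cdkn1c at 2.13, 1.81, 2.04 and 2.10 CPM. In the Peg10 cluster, the retrotransposon-derived Peg10 was at 69.9, 46.4, 55.0 and 58.4 CPM, Sgce (epsilon-sarcoglycan) at 14.9, 17.01, 14.8 and 14.3 CPM and Asb4 at 0.065, 0.031, 0.071 and 0.088 CPM. Igf2r was at 55.1, 52.8, 54.9 and 52.0 CPM and its antisense silencer Airn at 0.945, 1.14, 1.14 and 0.892 CPM.

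Pairs in which a gene sits in or beside a larger host gave Nnat at 472, 460, 482 and 509 CPM with Blcap at 124, 111, 118 and 118 CPM, the splicing factor gene Zrsr1 at 77.3, 79.5, 75.9 and 78.3 CPM with Commd1 at 13.8, 15.7, 14.6 and 13.6 CPM, and the retrogene Mcts2 at 10.3, 10.4, 9.50 and 10.2 CPM with H13 (signal peptide peptidase) at 68.7, 65.7, 63.4 and 67.0 CPM. Single imprinted genes were Gnas (1331, 1275, 1250 and 1328 CPM), Impact (351, 351, 340 and 319.9 CPM), Rasgrf1 (558, 582, 584 and 550.2 CPM), Nap1l5 (268, 302, 252 and 249 CPM), the zinc finger transcription factor Plagl1 (117, 109, 105 and 114 CPM), Zdbf2 (80.6, 68.5, 65.0 and 61.7 CPM) and Grb10 (42.2, 34.8, 36.3 and 35.2 CPM). None of these passed in any comparison.

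By parental copy, 20 of 26 tested paternally expressed genes and 10 of 12 maternally expressed genes had lower values in PS males, with median log2 fold changes of -0.06 and -0.13. In PS females the counts were 13 of 26 and 4 of 12, with medians of -0.01 and 0.04. In males 48.2% of all genes were lower. The male counts were 13 of 26 and 9 of 12 with CPM as deposited, where 33.9% of all genes were lower, and 13 of 26 and 10 of 12 without LM25 and LM28 (medians -0.00 and -0.05), the splits by copy under both settings having been added after the data were seen.

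The design also allows a look at whether neighbouring imprinted genes vary together between animals. For 17 pairs chosen by position, each library's deviation from its group mean was correlated over 16 libraries (permutation within groups, two-sided, adjusted over the 17 pairs). Of these, 4 passed, and 1 of the 4, Snrpn with Snurf (r = 1.00), is one set of reads counted under both names. Meg3 and Rian, consecutive noncoding transcripts on the same strand, gave r = 0.93 (Spearman rho 0.93, adjusted permutation p = 8.5e-05, from the smallest p the resamples allow, and r = 0.91 without LM28 and LM32). Peg3 and Usp29, which start head to head from the overlapping windows shown above, gave r = 0.83 (rho 0.83, adjusted permutation p = 0.00414, r = 0.83 without LM18 and LM23). Snhg14 and Ube3a, which share exon bases on opposite strands, gave r = 0.69 (rho 0.74, adjusted permutation p = 0.0202, r = 0.71 without LM24 and LM28).

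The other 13 pairs did not pass. Snrpn and Snhg14, for which RefSeq gives a common upstream start, gave r = -0.43 (rho -0.41, adjusted permutation p = 0.225), which was -0.07 without LM21 and LM24. Igf2r and Airn gave r = -0.53 (rho -0.54, adjusted permutation p = 0.0987), and Dlk1 and Meg3 r = 0.57 (rho 0.45, adjusted permutation p = 0.110), which fell to 0.22 without LM17 and LM28. High correlations were not limited to neighbours. Over all 780 pairs of the 40 tested genes the median r was 0.26, and 12.8% reached the value of Snhg14 and Ube3a. Magel2 and Zim1, far apart on chromosome 7, gave r = 0.98, and Peg10 on chromosome 6 with Magel2 r = 0.96. These were picked after the values were seen. The libraries share the dissection and the authors' correction, which took away variation within groups, so they are not fully exchangeable.

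**Figure D5:**
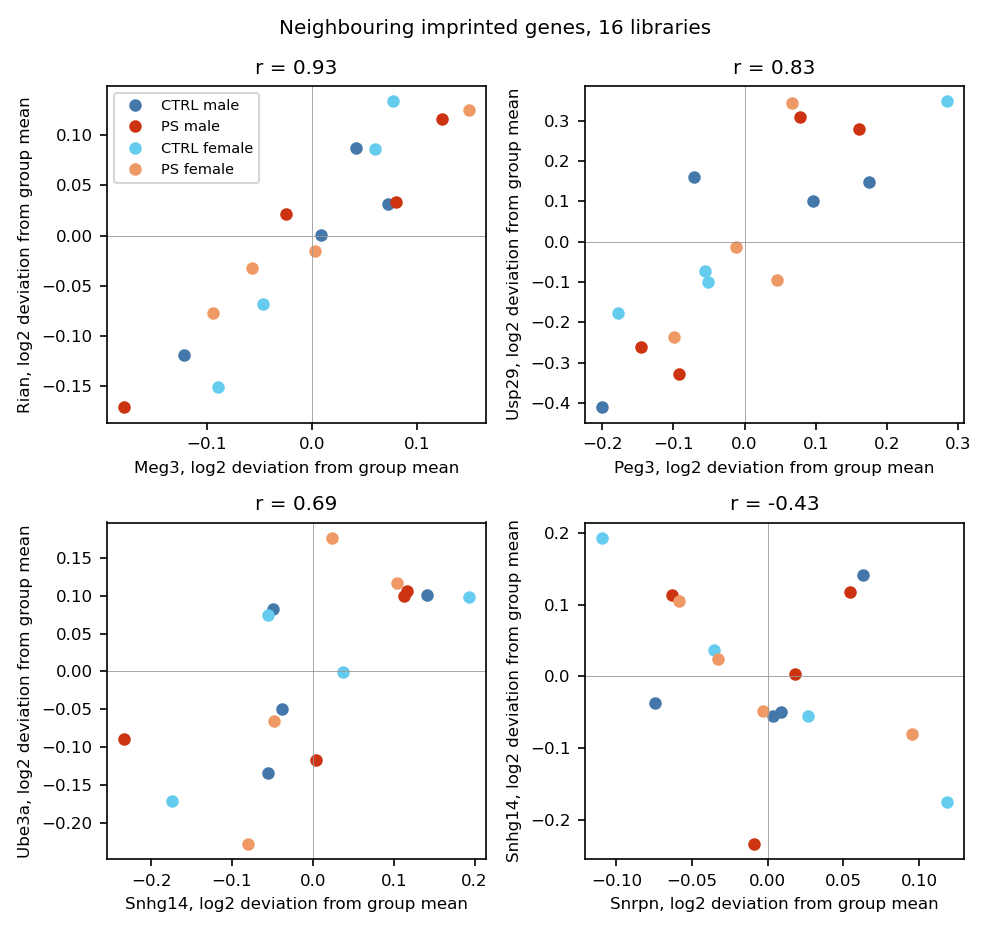
Deviation of each library from its group mean (log2) in one gene against a neighbour, coloured by group, for 4 pairs of imprinted genes over 16 libraries. Meg3 and Rian (r = 0.93), Peg3 and Usp29 (0.83) and Snhg14 and Ube3a (0.69) rise together, and Snrpn and Snhg14 (-0.43) do not.

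Of 44 further genes listed as imprinted outside the 43, 30 were tested. Their imprinting need not hold in amygdala, and the copy read was not measured. In males 2 of 30 were lower in PS, where 3.44% of all genes passed. These were Kcnk9, a maternally expressed potassium leak channel of brain (-0.57 ± 0.13 (SE), adjusted p = 0.0436, 16.5 against 23.6 CPM), and the transporter Slc22a3 (0.252 against 0.518 CPM). Slc22a3 reached the tested level only through the groups in which it was high, so its calls support nothing and no test of it is given. Without LM25 and LM28 none of the 30 passed in males, and Kcnk9 stood at -0.43 (adjusted p = 0.146). In females 0 passed. Between PS females and PS males 3 of 30 passed, where 13.1% of all genes did. Cobl (0.79, adjusted p = 0.0351) and Slc22a3 were higher in females and Cd81 (-0.35, adjusted p = 0.0175) lower, and without LM25 and LM28 Cobl stood at 0.88 (adjusted p = 0.0280) and Cd81 at -0.38 (adjusted p = 0.0225). With CPM as deposited 6 of 30 passed, with Copg2, Gab1 and Qpct added. The difference between the PS effects passed for 1 of 30, Slc22a3, where 4.11% of all genes passed.

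Of 15 tested genes that set or keep imprints, 0 passed between PS and CTRL in either sex. Between PS females and PS males 3 of 15 passed, against the same 13.1% of all genes. The maintenance methyltransferase Dnmt1 (0.19) and the histone methyltransferase Ehmt2 (0.21) were higher in females and the demethylase Kdm1b (-0.35) lower, with adjusted p between 0.0242 and 0.0300. Without LM25 and LM28 they stood at 0.21, 0.20 and -0.36, and Kdm1b lost its call (adjusted p = 0.0505). With CPM as deposited only Kdm1b of the 15 passed. The difference between the PS effects passed for 1 of 15, Ehmt2 (-0.30, adjusted p = 0.0497), against 4.11% of all genes. Its value was -0.28 without LM25 and LM28 (adjusted p = 0.0437), and with CPM as deposited 0 of 15 passed. Between CTRL females and CTRL males 0 genes of either list passed. For these further genes both settings were added after the data were seen.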

How the data were processed

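RNA-seq libraries of 16 mice were used. The authors sequenced directional poly(A) libraries, aligned them to mm10 with STAR, counted with featureCounts and corrected with RUVs, and no versions or strand setting are given in the sources used here. The deposited table holds 17293 genes with a corrected value per library, read here as scores since they are no longer read counts, and CPM that the authors computed from these scores. It also holds the authors' fold changes, p-values and FDR, which were not used. Because 2 of 12 directions of variation within groups had been removed from the deposited scores, both were fitted as covariates and 10 residual degrees of freedom remained.

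TMM factors (0.950 to 1.047) rescaled CPM, 0.5 was added, and log2 values were fitted in limma 3.58.1 (R 4.3.3) with one mean per group over 16 libraries and variances that follow expression. Fold changes of low genes are understated on this scale. Whether groups overlap was read on CPM as deposited, before rescaling. Genes with a mean above 0.5 CPM in a compared group were tested, Benjamini-Hochberg adjustment ran over all of them, and an adjusted p under 0.05 passed. The intervals are those of the moderated fit. Corrected values allow no counting interval, and 4 libraries per group set the precision. Pairs were tested with 100000 permutations. The fit and the pair test were tested on simulated data. Exon lengths and coordinates are from GENCODE release M21.

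The imprinted genes, the pairs and the lists were chosen with earlier results of these data known. Values in every library are given for genes that passed anywhere and for the 3 with the smallest p in each comparison, and group means for the rest. Of the other lists, genes that passed are named. Alternatives of the fit were other added values, no filter, CPM as deposited, variances not made to follow expression, and removed directions not counted. The others were only the compared groups, each library left out, and LM25 with LM28 left out.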

Additional observations from a re-analysis of the deposited data

Results flagged for a closer look

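Of 160 groups of 4 libraries (40 imprinted genes in 4 groups), 8 had one library far from the other 3 by Dixon's ratio, and chance gives about 1 in 20. Usp29 in CTRL males was 40.0 CPM in LM17, where the others lay between 57.5 and 60.2 CPM. Snhg14 in CTRL males was 39.6 CPM in LM19, with the others between 34.2 and 35.0 CPM. Mcts2 in PS males was 9.24 CPM in LM28, with the others between 10.6 and 10.9 CPM. In CTRL females, Ndn was 121.5 CPM in LM24 (others 97.3 to 99.998 CPM), Sfmbt2 was 6.15 CPM in LM23 (others 4.13 to 4.43 CPM) and Gnas was 1323 CPM in LM21 (others 1218 to 1235 CPM). In PS females, Trappc9 was 71.8 CPM in LM32 (others 79.4 to 80.3 CPM) and Commd1 was 14.6 CPM in LM30 (others 13.1 to 13.3 CPM). Commd1 shares 412 exon bases with Zrsr1 on the other strand.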

How the results depend on the processing

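For the 15 fold changes followed through 357 alternatives, 325 kept their direction and their side of the threshold, 6 lost the call, 26 gained it and 0 reversed. The count of imprinted genes that passed in males went from 0 to 4 with the removed directions not counted (Dlk1, Sfmbt2, Trappc9 and Usp29), to 2 with only the compared groups (Sfmbt2 and Trappc9), and from 0 to 4 with single libraries left out (4 without LM17: Dlk1, Magel2, Trappc9 and Usp29). Between PS females and PS males it was 2, and 1 to 3 with single libraries left out (1, Snhg14, without LM25, LM28, LM31 or LM32, and 3 without LM29, with Inpp5f added, or LM30, with Sgce added). Without LM26 it stayed 2, but Dlk1 took the place of Mkrn3. It was 1 (Snhg14) without LM25 and LM28 together, and 3 with CPM as deposited or with the removed directions not counted (Inpp5f added both times) or with no filter (Rtl1 added). For the difference between the sexes it went from 0 to 1 with the removed directions not counted or without LM25 and LM28 (Snhg14 both times), and from 0 to 1 with single libraries left out (Mest without LM17, Snhg14 without LM21 or LM28, Mirg without LM23). In PS against CTRL females and in CTRL females against CTRL males it stayed at 0 throughout. The residual degrees of freedom were 10 in the fit reported and with libraries left out, 12 with the removed directions not counted and 6 with only the compared groups. The cause of each change was not tested. The number of pairs that passed was 4, and 4 to 6 with single libraries left out. No paired analysis was possible, because the replicate numbers are library numbers and no litter is given for any library. Comparisons of females with males may therefore hold littermates. The deposited values are corrected, so what the correction added between groups cannot be recovered, and 4 libraries per group limit the precision.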
